A study of Homo sapiens with 6 samples.

Results

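The genes described here encode the secreted and membrane-bound cues that steer migrating cells and growing axons, together with their receptors. They are the semaphorins with their plexin and neuropilin receptors, the Slits with the Robos, the netrins with the UNC5 receptors, and the ephrins with the Eph receptor tyrosine kinases. Members were chosen by gene symbol alone, and 63 of the 20851 genes in the deposited table belong to 11 families of this kind, 34 encoding ligands and 29 encoding receptors. Their RNA was measured by poly(A) RNA-seq in A375, an established human melanoma cell line. The 3 A375RIPK4.KO libraries came from a subline (clone #1) made with the CRISPR/Cas9 system and a lentiviral guide RNA against RIPK4, a receptor-interacting serine/threonine kinase. The 3 A375neg libraries came from the negative control subline, made with a nontargeting guide RNA and labelled as a GFP control, so both groups went through a guide RNA procedure. Because every knockout library is from 1 clone, the loss of RIPK4 and the differences between clones cannot be told apart in any comparison below, and p-values measure the spread between these libraries only.

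As background, semaphorins are defined by a shared sema domain and act through plexins, whose cytoplasmic part is a GTPase-activating protein for small Ras-family GTPases. The secreted class 3 semaphorins bind a neuropilin as the ligand-binding subunit and a plexin as the signalling subunit, whereas membrane-bound classes bind plexins directly. Slits act through Robos, netrins through DCC, neogenin and UNC5 receptors, and ephrins through Eph receptors at sites of cell contact, with signalling in both cells. Neural crest cells, from which melanocytes arise, use these cues during migration.

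Library depth was 21882863 to 26694140 assigned counts. Levels are given in CPM (raw counts scaled to a common library size with TMM). RIPK4 itself had 319, 368 and 404 raw counts in A375neg and 42, 51 and 61 in A375RIPK4.KO, which agreed in direction with the labels. The melanocyte and neural crest gene SOX10 had 317 to 388.5 CPM in the 6 libraries, while the melanocytic genes MLANA, TYR and DCT are not listed in the table, and the summed level of the 5 listed lineage markers of 8 was 405 to 439 CPM in A375neg and 349 to 369 CPM in A375RIPK4.KO. Of the endothelial markers, 5 of 6 are listed, with a summed level of at most 17.5 CPM in A375neg and 18.3 to 20.3 CPM in A375RIPK4.KO, most of it KDR, and PECAM1, CDH5 and VWF each had a mean under 1 CPM. The other marker lists summed to 587 to 609 and 654 to 709 CPM (undifferentiated melanoma, most of it AXL), 79.0 to 82.0 and 62.4 to 79.3 CPM (keratinocyte), 4.92 to 6.11 and 4.17 to 5.57 CPM (fibroblast), 1.63 to 2.05 and 0 to 0.802 CPM (leukocyte) and 350.0 to 384 and 317 to 409 CPM (neuron, most of it TUBB3), in A375neg and A375RIPK4.KO respectively. These sums are carried by a few genes and hide changes in both directions. In the undifferentiated list NGFR was 8.19-fold lower and SOX9 6.55-fold higher, and in the keratinocyte list KRT14 was lower (log2 fold change -1.75) and KRT6A higher (0.61). S100B of the lineage list and LYZ of the leukocyte list were also called lower, and MAP2 of the neuron list higher. Their part in the results was not tested. A375RIPK4.KO replicate 2 stood apart in a trend with gene length (Spearman's rho across genes of the deviation from its group mean with exon length, -0.35, against 0.27 and 0.22 in replicates 1 and 3). Removing that trend left the same 17 members called. Leaving out this library kept 15 of them, with EFNB3 and SEMA4G lost. The part of this library in the results was not tested further.

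The sequences just upstream of 5 called members with an annotated start are shown as examples. Of the 17 called, SEMA5A had the largest change, at a log2 fold change of -3.18, and PLXND1 the smallest, at 0.71. The sequences set base composition beside the direction in which each gene moved. Each is the 250 bases before the transcription start in RefSeq (GRCh38.p14), 5′ to 3′ on the gene's strand, with GC boxes (GGGCGG or its reverse complement CCGCCC) in capitals, and adjoining boxes may overlap.
SEMA5A, chr5:9546076-9546325, minus strand: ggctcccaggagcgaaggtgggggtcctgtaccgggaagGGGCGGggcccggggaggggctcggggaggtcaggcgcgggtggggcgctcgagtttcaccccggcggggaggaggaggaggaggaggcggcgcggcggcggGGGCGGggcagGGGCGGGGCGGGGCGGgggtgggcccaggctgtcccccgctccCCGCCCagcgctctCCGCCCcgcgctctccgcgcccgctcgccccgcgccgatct
PLXNB3, chrX:153763999-153764248, plus strand: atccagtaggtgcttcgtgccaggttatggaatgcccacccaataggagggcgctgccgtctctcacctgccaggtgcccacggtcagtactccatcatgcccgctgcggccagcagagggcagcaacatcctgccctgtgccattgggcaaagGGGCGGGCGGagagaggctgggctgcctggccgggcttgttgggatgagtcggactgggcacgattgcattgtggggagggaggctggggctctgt
SEMA3F, chr3:50154808-50155057, plus strand: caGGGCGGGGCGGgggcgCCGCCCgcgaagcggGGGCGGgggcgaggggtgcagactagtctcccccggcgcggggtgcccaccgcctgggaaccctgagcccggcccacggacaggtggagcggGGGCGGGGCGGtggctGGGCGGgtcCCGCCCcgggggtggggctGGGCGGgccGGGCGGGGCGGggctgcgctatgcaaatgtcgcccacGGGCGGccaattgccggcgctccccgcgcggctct
ROBO4, chr11:124897866-124898115, minus strand: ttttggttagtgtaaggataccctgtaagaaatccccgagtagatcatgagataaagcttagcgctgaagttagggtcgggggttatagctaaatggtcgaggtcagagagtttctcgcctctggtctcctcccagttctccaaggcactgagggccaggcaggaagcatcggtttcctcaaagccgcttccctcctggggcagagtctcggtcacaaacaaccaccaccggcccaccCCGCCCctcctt
PLXND1, chr3:129606677-129606926, minus strand: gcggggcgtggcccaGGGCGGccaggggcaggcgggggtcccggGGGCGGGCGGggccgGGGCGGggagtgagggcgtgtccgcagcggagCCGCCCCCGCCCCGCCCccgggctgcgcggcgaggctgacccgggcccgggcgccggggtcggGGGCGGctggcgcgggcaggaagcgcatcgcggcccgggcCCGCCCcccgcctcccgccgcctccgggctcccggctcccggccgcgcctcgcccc
SEMA5A, SEMA3F and PLXND1 have a G+C content of 82.0%, 82.0% and 88.8%, with 33, 34 and 41 CG dinucleotides and 7, 12 and 9 GC boxes. ROBO4 has 54.8% G+C, 10 CG dinucleotides and 1 GC box, near the medians of all windows in the RefSeq table, 58.0% and 11. PLXNB3 lies between them at 64.4% and 2 GC boxes. The table holds a window for 53 members, and with 1 window taken per member a GC box was found in 42 of these, beside 61.7% of all 15816 windows of the genes tested. The AP-1 motif TGACTCA or TGAGTCA was in none of the 53, beside 3.16% of the windows of genes tested. These figures are not like for like. The window of a member was taken by preference at an annotated start, and members too low to test were included. The percentages count every window of each gene tested. Among called members with a window, a GC box was present for 8 of 9 that were lower and for 3 of 5 that were higher. These counts depend on the window taken. SEMA4G, which was higher, was counted by a window with 0 GC boxes, and its other window has 2. SEMA3F, which was lower, has 12 in the window shown and 2 and 0 in its other windows. These are descriptions of letters in a window and not of binding.

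Of the 63 members, 51 had enough counts to be tested, and 17 of them changed, 6 higher and 11 lower in A375RIPK4.KO. A gene was called changed at an adjusted p under 0.05 (quasi-likelihood test of edgeR, Benjamini-Hochberg adjusted over all 14443 genes tested) and a fold change of at least 1.5. That is 33.3% of the members tested, where 9.04% of all genes tested were called, 4.39% higher and 4.65% lower. The median log2 fold change was -0.15 over the 51 members and -0.0047 over all genes tested. Without a limit on the fold, 22 members had an adjusted p under 0.05, beside 16.6% of all genes, and the values of the groups did not overlap for 33 members, beside 36.5% of all genes. Of 27 ligands tested, 3 were higher and 7 lower, and of 24 receptors tested, 3 were higher and 4 lower. In a bulk sample, fewer cells that express a gene and less RNA per cell cannot be told apart.

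**Figure D1:**
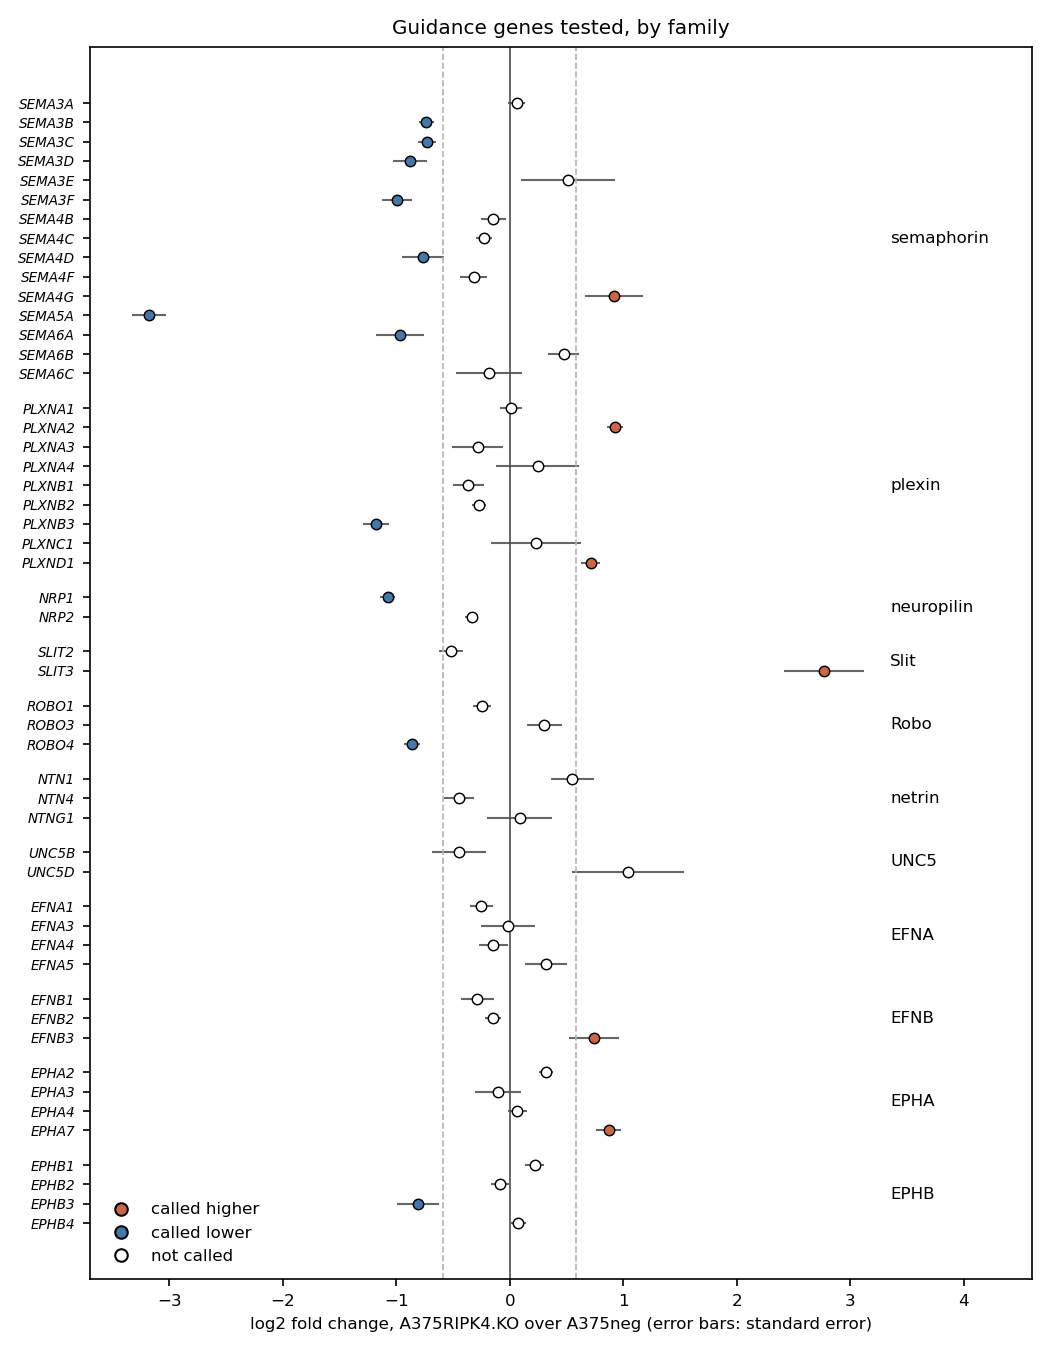
Log2 fold change of A375RIPK4.KO over A375neg for the 51 guidance genes tested, by family, with standard errors as bars (3 libraries per group) and dashed lines at 1.5-fold. Filled points are the 6 members called higher and the 11 called lower, with SEMA5A at -3.18 and SLIT3 at 2.77 at the ends.

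The semaphorins held 8 of the 17 changes. SEMA5A, a membrane semaphorin with thrombospondin type 1 repeats, had the largest fall. It had 41.6, 31.7 and 37.8 CPM in A375neg and 4.19, 4.64 and 3.43 CPM in A375RIPK4.KO, so the highest knockout library lay far below the lowest control library. On the log2 scale the fold change was -3.18 (SE, the standard error, 0.15, edgeR adjusted p = 1.72e-06), or 9.05-fold lower. In CPM per kb of exon, its share of the summed semaphorin level was 4.08% to 5.15% in A375neg and 0.573% to 0.818% in A375RIPK4.KO. SEMA5A lies on chromosome 5 from 9035033 to 9546075 (GRCh38). The 6 tested genes within 1 Mb had log2 fold changes of -0.29 to 0.084 and none was called, while within 2 Mb ANKRD33B, 1 of 11 genes, was called higher at 0.66.

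PLXNB3, a plexin and the high-affinity receptor of SEMA5A, fell as well. Its levels were 23.8, 25.3 and 25.0 CPM in A375neg and 12.3, 9.36 and 11.03 CPM in A375RIPK4.KO, without overlap. On the log2 scale this was -1.18 (SE 0.11, edgeR adjusted p = 0.000145). PLXNB3 shares exon sequence on the same strand with the kinase gene SRPK3, which had 9, 12 and 11 raw counts in A375neg and 7, 0 and 1 in A375RIPK4.KO, small beside the 220 to 675 counts of PLXNB3. Its antisense gene PLXNB3-AS1 had a log2 fold change of -0.05. Of 49 tested genes within 1 Mb of PLXNB3, 5 were called, all of them higher, and the median log2 fold change was 0.065. Both members of this ligand and receptor pair were thus lower in the same libraries. No gene within 0.5 Mb of SEMA5A was tested. Near PLXNB3, SRPK3 was too low to test, and TMEM187, with a midpoint 0.206 Mb away, had -0.86 and was not called. The part of a local change of the chromosome was not tested.

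**Figure D2:**
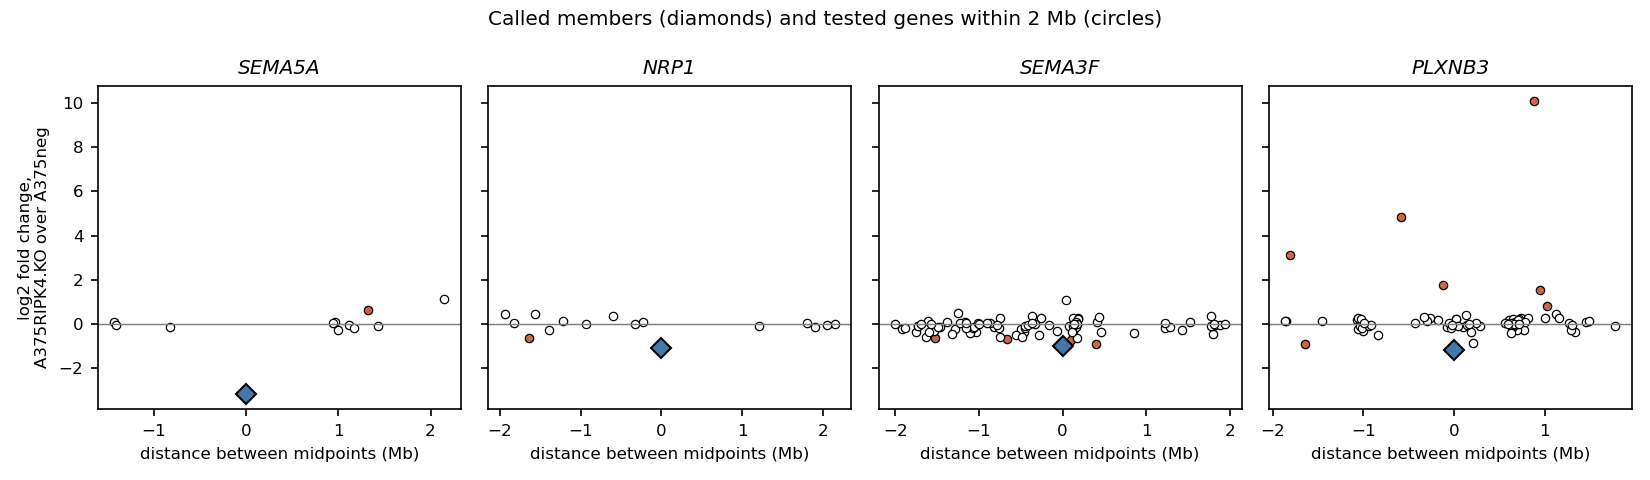
Log2 fold change of 4 called members (diamonds) and of the tested genes whose ends lie within 2 Mb (circles, filled where called in either direction), against the distance between gene midpoints in Mb. SEMA5A at -3.18 and NRP1 at -1.08 lie below every neighbour shown, and the 5 called genes within 1 Mb of PLXNB3 lie above 0, the topmost being CTAG2, whose fitted value rests on control libraries near 0 counts.

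Among the class 3 semaphorins, which are secreted, 6 of 7 were tested and 4 fell, with a median log2 fold change of -0.73. SEMA3C, an attractant for neural crest cells in the heart outflow tract, had 129, 126 and 150.3 CPM in A375neg and 84.5, 77.2 and 82.4 CPM in A375RIPK4.KO (log2 fold change -0.73, SE 0.08, edgeR adjusted p = 0.000304). SEMA3B, whose gene lies in a chromosome 3 region often lost in lung cancer, had 66.6, 63.0 and 63.6 CPM against 38.2, 40.2 and 37.9 CPM (-0.73, SE 0.06, edgeR adjusted p = 7.55e-05). SEMA3F, a repellent of endothelial and tumour cells that binds NRP2, went from 12.8, 14.4 and 13.4 CPM to 6.64, 7.57 and 6.16 CPM, a 1.99-fold difference (SE 0.13 on the log2 scale, edgeR adjusted p = 0.000878). In each of these 3 genes every knockout library was below every control library. SEMA3D, with 6.80 to 7.17 CPM in A375neg and 3.49 to 3.92 CPM in A375RIPK4.KO, was also lower without overlap (-0.88, SE 0.15, edgeR adjusted p = 0.00392).

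SEMA3A, the founding collapse-inducing semaphorin, was not called, with 120.2, 114 and 130.0 CPM in A375neg and 132, 117 and 132 CPM in A375RIPK4.KO (log2 fold change 0.06, SE 0.08). Its share of the summed class 3 level per kb was 25.9% to 26.5% in A375neg and 36.7% to 39.5% in A375RIPK4.KO. The share of SEMA3C was 42.3% to 45.6% in A375neg and 36.4% to 37.2% in A375RIPK4.KO. The order of the first and second member in A375RIPK4.KO rests on the length used, since SEMA3C, at 33.6%, stayed first when levels were divided by the longest transcript. The summed class 3 level was 47.1 to 52.6 CPM per kb in A375neg and 33.9 to 36.2 CPM per kb in A375RIPK4.KO. SEMA3E was near the limit of testing at 8 to 16 counts per library (log2 fold change 0.51, SE 0.42), and SEMA3G was not tested, with 4, 0 and 4 counts against 15, 8 and 8.

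SEMA3B and SEMA3F lie within 1 Mb of each other on chromosome 3. Around SEMA3F, 44 genes within 1 Mb were tested, and 3 were called, all lower: SEMA3B, DAG1 and C3orf18. The median of the 44 was -0.07. DAG1 encodes dystroglycan, a laminin receptor that also binds Slits, and fell by 0.70 on the log2 scale.

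Of the 9 other semaphorins tested, SEMA5A, SEMA4D and SEMA6A fell and SEMA4G rose. SEMA4D, an activator of plexin B1 first known from lymphocytes, had 10.8, 10.1 and 9.46 CPM in A375neg and 7.04, 4.42 and 6.40 CPM in A375RIPK4.KO (log2 fold change -0.76, SE 0.18, edgeR adjusted p = 0.0211). SEMA6A, a transmembrane ligand of plexins A2 and A4, had 4.24, 4.36 and 3.25 CPM against 2.27, 1.91 and 1.86 CPM (-0.97, SE 0.21, edgeR adjusted p = 0.0133). Both were lower in every knockout library. Of the 6 tested genes within 1 Mb of SEMA6A, AP3S1 was called lower and none higher, and their median log2 fold change was -0.09. SEMA4G was low throughout, with 20, 26 and 23 raw counts in A375neg and 34, 43 and 42 in A375RIPK4.KO (0.92, SE 0.26, edgeR adjusted p = 0.0404). It overlaps the mitochondrial ribosomal gene MRPL43 on the other strand, which had 62.5 ± 5.80 CPM in A375neg and 65.9 ± 10.4 CPM in A375RIPK4.KO (SD, n = 3). The libraries were strand-specific, but the strand setting of the counting is not given in the sources used here.

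SEMA6B passed the test below the fold limit (log2 fold change 0.47, edgeR adjusted p = 0.0412). SEMA4B, SEMA4C, SEMA4F and SEMA6C did not pass, with log2 fold changes of -0.32 to -0.15, and SEMA4C was closest at an adjusted p of 0.0564 from edgeR. SEMA4A and SEMA6D were too low to test, at 0 to 5 counts per library. Summed over the 18 semaphorins listed, the level per kb was 64.1 to 69.8 CPM in A375neg and 46.9 to 49.8 CPM in A375RIPK4.KO.

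Both neuropilins, the ligand-binding receptors of class 3 semaphorins and co-receptors of VEGF, were lower, and NRP1 more so. NRP1 had 109, 109.9 and 118 CPM in A375neg and 50.9, 52.0 and 56.6 CPM in A375RIPK4.KO, a 2.11-fold difference (log2 fold change -1.08, SE 0.07, edgeR adjusted p = 1.07e-05). NRP2 had 108, 106 and 112 CPM against 84.4, 84.3 and 89.1 CPM, and passed the test below the fold limit (-0.34, SE 0.06, edgeR adjusted p = 0.00395). The groups did not overlap for either gene. Per kb, NRP1 was the more abundant neuropilin in each A375neg library, at 54.9% to 56.0% of their sum, and the less abundant in each A375RIPK4.KO library, at 42.1% to 43.4%. The 5 tested genes within 1 Mb of NRP1 had a median log2 fold change of 0.011 and none was called.

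All 9 plexins were tested, and 2 rose and 1 fell. PLXND1, a receptor of SEMA3E and of class 3 semaphorins bound to neuropilins, had 59.2, 66.1 and 72.8 CPM in A375neg and 110.4, 101 and 113 CPM in A375RIPK4.KO (log2 fold change 0.71, SE 0.09, edgeR adjusted p = 0.000489). PLXNA2, a receptor of SEMA3A complexes and of SEMA6A, had 30.4, 28.4 and 28.8 CPM against 58.2, 53.2 and 55.3 CPM (0.93, SE 0.07, edgeR adjusted p = 3.17e-05). In both, every knockout library was above every control library. Of the 7 tested genes within 1 Mb of PLXNA2, CD34 was called higher (1.99) and C1orf116 lower (-0.89). PLXNB2, a receptor of class 4 semaphorins and the most abundant plexin per kb in each library, passed the test below the fold limit, with 140, 143 and 154 CPM against 125, 115 and 121 CPM (-0.27, SE 0.06, edgeR adjusted p = 0.0194).

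The plexin mixture thus differed between groups while its sum did not separate them. The summed plexin level was 40.8 to 44.4 CPM per kb in A375neg and 39.4 to 44.9 CPM per kb in A375RIPK4.KO. The share of PLXNB2 was 47.0% to 47.7% in A375neg and 38.0% to 40.2% in A375RIPK4.KO, that of PLXND1 14.9% to 16.8% and 25.2% to 26.4%, and that of PLXNB3 8.04% to 8.61% and 3.39% to 3.92%. PLXNA1 was second by mean level per kb of exon in A375neg, at 16.7% beside 16.0% for PLXND1. With the longest transcript as length PLXND1 was second, at 18.3% beside 16.9%. PLXNA1 did not pass the test (log2 fold change 0.01, SE 0.09). Neither did PLXNA3, PLXNB1, PLXNA4 or PLXNC1, of which the last pair had 15 to 34 counts per library. PLXNA3 spread widely within the knockout, at 17.6, 8.42 and 11.2 CPM, and was called lower without A375RIPK4.KO replicate 1 (-0.62).

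**Figure D3:**
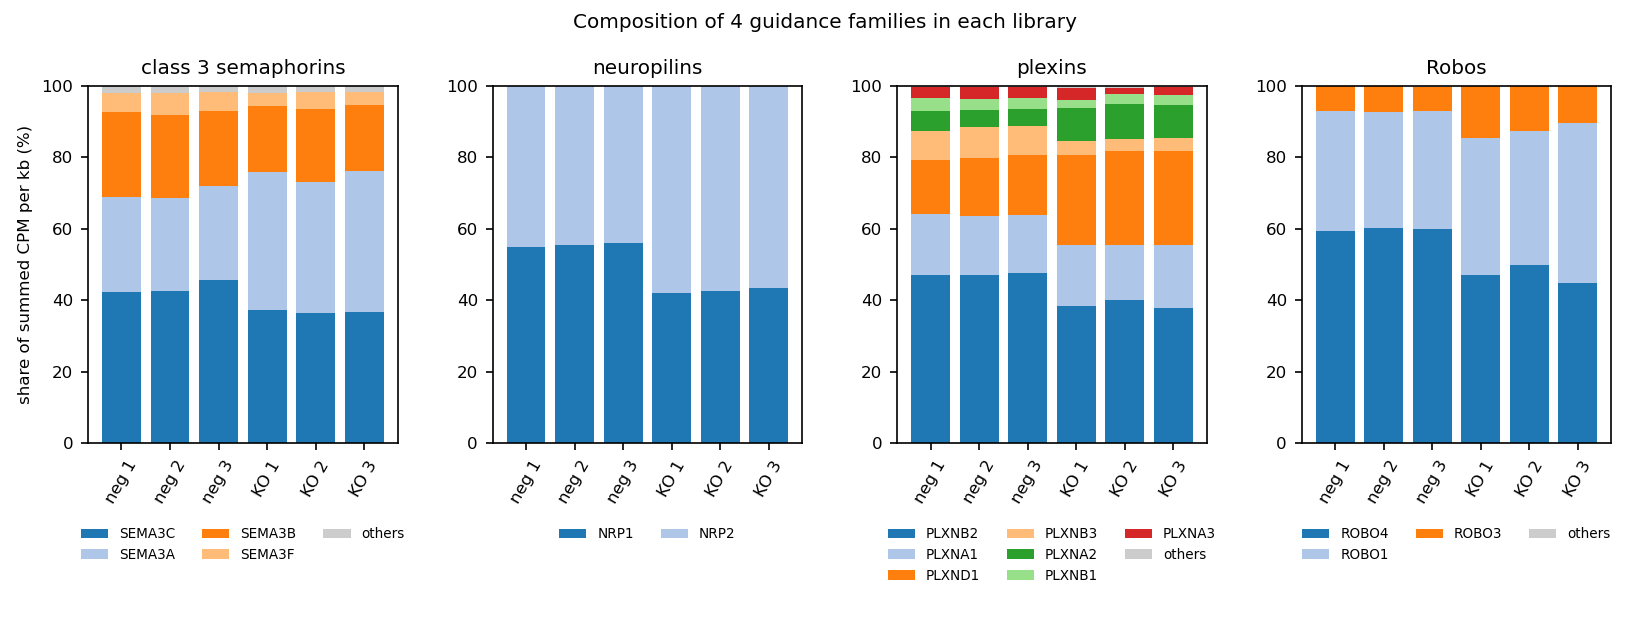
Share in percent of each member in the summed CPM per kb of its family, in each of the 3 A375neg (neg) and 3 A375RIPK4.KO (KO) libraries, with members always under 2% drawn together as others. NRP1 is over 54% of the neuropilins in each control library and under 44% in each knockout library, and PLXND1 takes a larger part of the plexins in each knockout library.

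Set side by side, known ligand and receptor pairs moved in the same and in opposite directions. SEMA5A and PLXNB3 were both lower, as were SEMA3B, SEMA3C and SEMA3D with NRP1. SEMA3F was lower with its receptor NRP2 at -0.34. In contrast, SEMA3C was lower and its receptor PLXND1 higher, and SEMA6A was lower and its receptor PLXNA2 higher. Likewise EFNB3 was higher (0.74) and its receptor EPHB3 lower (-0.81). SEMA4D was lower at a log2 fold change of -0.76, beside -0.36 for its receptor PLXNB1, which did not pass the test.

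**Figure D4:**
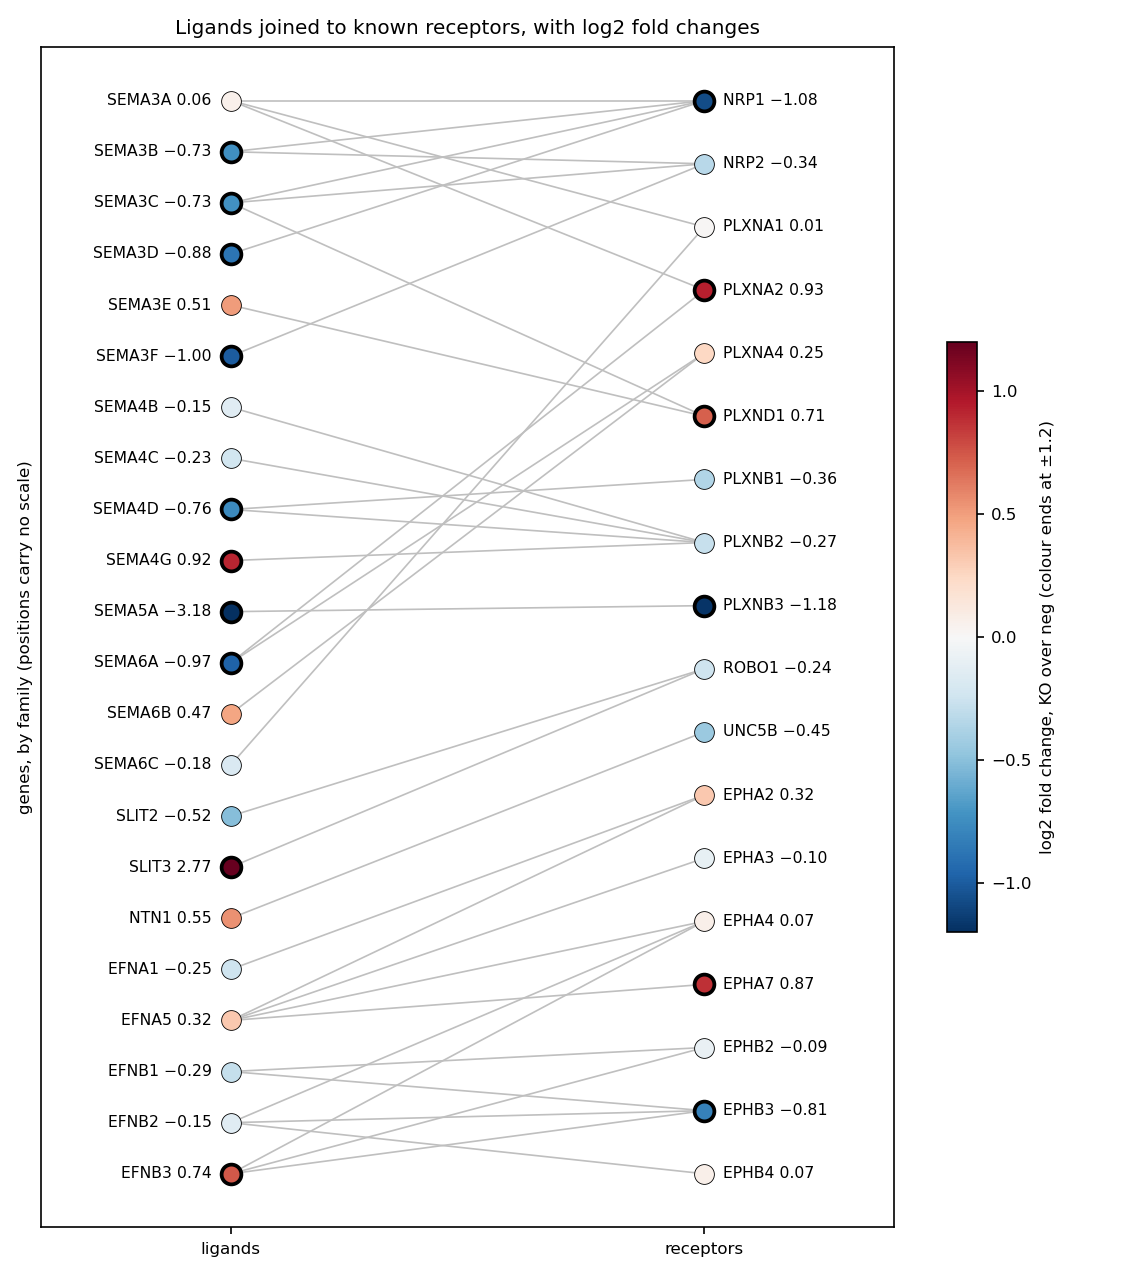
Ligands (left) joined by lines to receptors they are known to bind (right), each coloured by its log2 fold change of A375RIPK4.KO over A375neg, which is printed beside the symbol, with thick outlines for called genes. Lines are textbook pairs and not measurements, and the SEMA5A and PLXNB3 pair is dark blue at both ends.

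Among the Slits, secreted repellents, the minor member SLIT3 rose and the major member SLIT2 was lower below the fold limit. SLIT3 had 6, 6 and 9 raw counts in A375neg and 32, 48 and 53 in A375RIPK4.KO, or 0.225 to 0.348 CPM and 1.43 to 2.19 CPM, a 6.82-fold difference at a low level (log2 fold change 2.77, SE 0.35, edgeR adjusted p = 0.000691). SLIT2 had 20.8, 22.4 and 20.6 CPM against 14.1, 13.7 and 16.9 CPM, and passed the test below the fold limit (-0.52, SE 0.11, edgeR adjusted p = 0.0105). Without A375RIPK4.KO replicate 3 it was called lower (-0.62). SLIT2 made up 98.1% to 99.3% of the summed Slit level per kb in A375neg and 90.5% to 93.5% in A375RIPK4.KO, and the summed Slit level was 2.17 to 2.32 CPM per kb in A375neg and 1.55 to 1.90 CPM per kb in A375RIPK4.KO. SLIT1 had 0 to 4 counts per library.

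Around SLIT3 on chromosome 5, 4 of the 7 tested genes within 1 Mb were called, INSYN2B (log2 fold change 1.64), DOCK2 (0.98) and WWC1 (0.87) higher and TENM2 (-5.68) lower. The median of the 7 was 0.37.

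ROBO4, the Robo of endothelial cells, was the most abundant Robo per kb in A375neg and fell. It had 72.7, 70.7 and 75.3 CPM in A375neg and 40.6, 42.2 and 37.5 CPM in A375RIPK4.KO, without overlap (log2 fold change -0.86, SE 0.07, edgeR adjusted p = 4.6e-05). Of the 5 endothelial markers listed, PECAM1 was called lower with ROBO4, from 0.882 to 0.199 CPM (log2 fold change -2.12), and KDR was called higher, from 12.3 to 18.6 CPM (0.60). CDH5, VWF and TEK each had a mean under 1 CPM in both groups and were not called, the first pair being too low to test and CDH5 lower without overlap (0.263 to 0.541 and 0 to 0.178 CPM). These values are of genes read in sublines of the A375 melanoma cell line. The cause of the fall of ROBO4 was not tested. ROBO1, the main receptor of Slits in many tissues, had 64.0, 59.1 and 64.0 CPM against 50.9, 48.9 and 58.0 CPM and did not pass (-0.24, edgeR adjusted p = 0.068). ROBO3, a neighbour of ROBO4 on chromosome 11, did not pass at 0.30 (SE 0.15). Of the 20 tested genes within 1 Mb of ROBO4, SLC37A2 and PKNOX2 were called, both lower. They are also the called genes among the 12 tested within 0.5 Mb. The median log2 fold change was 0.048 within 1 Mb and -0.14 within 0.5 Mb. ROBO4 was on average 59.8% of the Robo sum per kb in A375neg and 47.3% in A375RIPK4.KO, and the sum was 16.7 to 17.8 CPM per kb in A375neg and 11.9 to 12.2 CPM per kb in A375RIPK4.KO. ROBO2 had 2 to 13 counts per library.

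No netrin or UNC5 receptor was called. NTN4, a basement membrane netrin and the most abundant one per kb, had 11.4, 11.3 and 10.9 CPM in A375neg and 9.44, 7.83 and 7.44 CPM in A375RIPK4.KO, just short of the threshold (log2 fold change -0.45, SE 0.13, edgeR adjusted p = 0.0517). NTN1, the classical axon attractant, had 3.63, 4.54 and 4.21 CPM against 4.81, 6.85 and 6.49 CPM (0.55, SE 0.19, edgeR adjusted p = 0.0864), and was called higher without A375RIPK4.KO replicate 1 (0.69). The groups did not overlap for either netrin. NTNG1 had a log2 fold change of 0.09 (SE 0.29). The dependence receptor UNC5B had 40 to 78 counts per library (-0.45, SE 0.24), and UNC5D had 4 to 18 (1.04, SE 0.49). NTN3, NTNG2 and UNC5C had at most 6 counts in any library.

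The EphA receptors were nearly all EPHA2, the Eph receptor most often raised in solid tumours. EPHA2 had 459, 474 and 479 CPM in A375neg and 555, 594 and 612 CPM in A375RIPK4.KO, higher without overlap but below the fold limit at 1.25-fold (log2 fold change 0.32, SE 0.06, edgeR adjusted p = 0.00727). It made up 95.2% to 95.6% of the summed EphA level per kb in A375neg and 95.1% to 95.9% in A375RIPK4.KO. Its antisense gene EPHA2-AS1, at 2.96 ± 0.624 CPM and 4.91 ± 0.488 CPM (SD, n = 3), was called higher. EPHA7, a receptor of ephrin-As with splice forms that lack the kinase, was the 1 EphA receptor called: it had 8.80, 8.63 and 9.58 CPM against 16.5, 15.4 and 17.6 CPM (0.87, SE 0.11, edgeR adjusted p = 0.000699). No gene within 2 Mb of EPHA7 was tested. EPHA3 and EPHA4 did not pass, at -0.10 and 0.07, and EPHA5 and EPHA6 had at most 16 counts in any library.

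Among the EphB receptors, EPHB3 fell, with 11.98, 9.35 and 9.77 CPM in A375neg and 6.82, 4.59 and 6.32 CPM in A375RIPK4.KO (log2 fold change -0.81, SE 0.18, edgeR adjusted p = 0.016). The most abundant, EPHB4, the partner of ephrin-B2 in veins, had 101, 98.7 and 103 CPM against 98.3, 108 and 112 CPM, and the groups overlapped at 0.07 (SE 0.07). EPHB1 and EPHB2 did not pass, at 0.22 and -0.09. Of the ephrins, EFNB3 was called higher, with 84, 106 and 130 raw counts in A375neg and 132, 206 and 149 in A375RIPK4.KO, the lowest knockout library lying close to the highest control library (0.74, SE 0.22, edgeR adjusted p = 0.0483). The abundant EFNB2 had 46.8, 48.4 and 52.0 CPM against 43.9, 44.8 and 44.1 CPM (-0.15, SE 0.07, edgeR adjusted p = 0.176). EFNB1 did not pass (-0.29), and none of the 4 ephrin-As tested did, with log2 fold changes of -0.25 for EFNA1, the main ligand of EPHA2, to 0.32 for EFNA5. EFNA2 had at most 5 counts and EPHB6 at most 3.

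**Figure D5:**
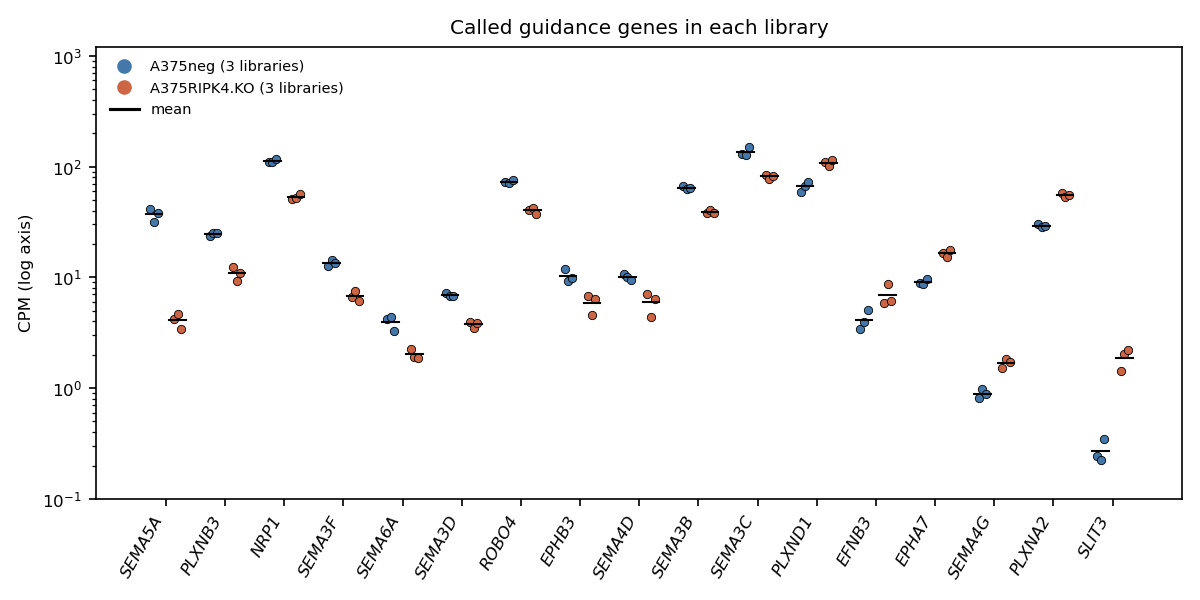
CPM on a log axis of the 17 called members in each library, ordered by log2 fold change, with black lines at the mean of 3 libraries per group. The groups do not overlap for any of the 17, and SLIT3 and SEMA4G lie lowest.

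The groups did not overlap for any of the 17 called members. Leaving out each library in turn kept 12 of the 17 in every case. SEMA4G was lost in all 6 (log2 fold change 0.86 to 0.99). EFNB3 was lost without A375neg replicate 1 (0.62) or 2 (0.72) and without A375RIPK4.KO replicate 2 (0.54) or 3 (0.82). SEMA4D was lost without A375neg replicate 1 (-0.72) or 2 (-0.76), SEMA6A without A375neg replicate 2 (-0.89) or A375RIPK4.KO replicate 3 (-0.91), and EPHB3 without A375neg replicate 1 (-0.69). The 5 members so lost kept their direction each time.

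The pathway around these families was followed in 126 partner and effector genes, of which 103 were tested, and 6 were higher and 10 lower, or 15.5% beside 9.04% of all genes tested. Their median log2 fold change was 0.0066. By list, the share called was 15.8% for semaphorin and plexin partners and 8.7% for Slit and Robo effectors. It was 21.4% for netrin partners and 17.9% for ephrin and Eph effectors. Of 38 semaphorin and plexin partners tested, KDR (log2 fold change 0.60) and MICAL2 (0.94) were higher, and FLT1 (-1.17), NRCAM (-2.69), ITGA1 (-1.05) and CD9 (-0.72) were lower. KDR and FLT1 encode VEGF receptors that share neuropilins as co-receptors, MICAL2 belongs to the MICAL oxidoreductases that act on actin, and NRCAM encodes a cell adhesion molecule that joins neuropilin 2 in semaphorin receptor complexes. Of 23 Slit and Robo effectors, FLRT3 (-0.94) and DAG1 (-0.70) were lower and none was higher, a share near that of all genes tested. Of 14 netrin partners, NEO1 (0.86), which encodes the netrin and RGM receptor neogenin, and RGMB (0.89), which encodes a neogenin ligand, were both higher, and MAGED1 (-0.60) was lower. NEO1 had 22.2, 20.2 and 22.95 CPM in A375neg and 41.1, 36.3 and 41.2 CPM in A375RIPK4.KO, without overlap. Of 28 ephrin and Eph effectors, ARHGEF16 (1.14) and GRIP1 (1.79), which encodes a PDZ adaptor of B ephrins, were higher, and NGEF (-1.48), which encodes an ephexin, KALRN (-1.54) and GPRC5A (-0.91) were lower.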

How the data were processed

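RNA-seq was analysed for 3 A375RIPK4.KO and 3 A375neg libraries. Reads were trimmed with cutadapt, mapped with HISAT2 to GRCh38.p13 and counted with HTSeq, per the submitters' processing notes, which give no versions. The raw counts per gene were deposited by the authors as whole numbers without normalization. A column set of normalized counts was also deposited, a signal that equals the raw count over the library's size factor to within 0.076, and were used for that check only. The authors' columns of fold change, log2 value, Wald score, standard error, p-value and adjusted p from their own DESeq2 test were not used. Genes listed have a total of at least 4 counts.

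The groups were compared by the quasi-likelihood test of edgeR 4.0.16 (R 4.3.3), after TMM and filterByExpr and with Benjamini-Hochberg adjusted p over 14443 genes, using all 6 libraries and no covariate. The standard error is the log2 fold change divided by the square root of the F statistic. A library's count of 0 allows up to 3 counts, for counting error only. Lengths are merged exons of GENCODE v29, available for all 63 members. The alternative is the longest GENCODE transcript that is paired with RefSeq. Positions are from RefSeq, and the deposited exons of all 63 members lie inside them. Alternatives were DESeq2 1.42.0, its size factors in edgeR, other low-count filters, a block for the replicate number, leaving out each library, removal of a length trend and other fold limits. Same-numbered libraries deviated together with r of 0.082, 0.036 and -0.012, so the numbers were not taken as pairs. The steps were tested on simulated counts. Every member may be named, with full values for called members and the most abundant of each family, and other genes where they are called in the pathway lists. NEO1's values, the chromosome neighbours and the overlapping genes were chosen after values were seen. The members, the lists of partners and markers and the ligand and receptor pairs were chosen with earlier results of these data known. Figures were drawn with matplotlib.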

Additional observations from a re-analysis of the deposited data

How the results depend on the processing

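Of the 17 members called, 11 were called in every alternative that used the same thresholds. The number called was 16 with DESeq2, 17 with DESeq2's size factors, 15 with no filter on low counts, 14 when genes under a mean of 50 counts were dropped and 17 with the length trend removed. Leaving out each library in turn gave 13 to 18 members, 4 to 6 higher and 9 to 12 lower, and 1059 to 1336 of all genes. A filter at a mean of at least 50 counts left 3 members higher, since it removed SLIT3 and SEMA4G from the test and EFNB3 no longer passed. A fold limit of at least 2 left 4 members (1 higher and 3 lower), 7 pathway genes and 793 of all genes, and no fold limit gave 33 pathway genes and 2403 of all genes. With the replicate block 16 members and 1266 of all genes were called, SEMA4G being lost, and no other member's call changed. No alternative reversed the direction of a called member or of RIPK4. With the longest transcript as length, the share of EPHA2 among EphA receptors in A375neg was 94.9% in place of 95.4%. The median over the called members of their neighbours' median log2 fold change was -0.025 within 1 Mb and 0.051 within 0.5 Mb. Depth limits the 12 members not tested, and SLIT3, SEMA4G, SEMA3E and UNC5D rest on few counts.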

Other observations

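SEMA7A, a membrane-anchored semaphorin, is listed only as a copy on an unplaced or alternate scaffold and lies outside the gene symbols used above. That copy had 75, 61 and 127 raw counts in A375neg and 64, 156 and 183 in A375RIPK4.KO. The groups overlapped, at 0.73 on the log2 scale (SE 0.38, edgeR adjusted p = 0.239). A scaffold copy of EPHB6 had 2, 3 and 0 counts in A375neg and 1, 1 and 2 in A375RIPK4.KO.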
